A study of Mus musculus with 12 samples.

Results

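The mitochondrial carrier family Slc25 was measured in whole kidneys of mice 4 h after a transient loss of blood flow. Its members were all probe sets whose platform annotation named exactly 1 gene, with a symbol made of Slc25a and a number, other than Slc25a20. They are 91 of the 45037 probe sets on the array and stand for 43 genes, 22 of them with several probe sets. The mice were males, 8 weeks old when bought. TLR4 null ischemic kidneys came from C57BL/10ScNJ mice, a substrain without Toll-like receptor 4. After removal of the right kidney, their left kidney had its pedicle clamped for 23 min and was collected at 4 h of reperfusion. TLR4 null sham kidneys came from C57BL/10ScNJ mice with the same right nephrectomy, in which the clip lay beneath the pedicle. Wild-type ischemic and wild-type sham kidneys came from C57BL/10 mice that had these same operations. Each group had 3 kidneys, on 1 array each, which the labels call biological replicates. All 12 mice had therefore lost the right kidney. The deficiency comes with a substrain, so TLR4 and any other difference between the substrains cannot be told apart.

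Carriers of this family sit mostly in the inner mitochondrial membrane and exchange metabolites between the cytosol and the matrix. They bring in ADP and phosphate and release ATP, move the acids and amino acids of the malate-aspartate shuttle and the urea cycle, and import cofactors, nucleotides and iron. The proximal tubule of the kidney is rich in mitochondria and depends on oxidative metabolism, so it relies on these exchanges and is a main site of damage when blood flow stops.

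Signals are MAS5 intensities on a linear scale, used as deposited. Differences are between group means of log2(signal + 15), given ± the standard error of a limma model over all 12 arrays. This scale understates the folds of low signals. The p-values were adjusted over the 30326 probe sets that passed a filter on low values, and a probe set under an adjusted p of 0.05 is called changed. Levels of different probe sets cannot be compared with each other. Array medians were between 61.2 and 77.4, and log2 values correlated across probe sets at r = 0.956 to 0.973 within groups and r = 0.929 to 0.972 between groups. A probe set for Tlr4 gave 0.901 to 3.38 on the 6 TLR4 null arrays and 65.6 to 120.4 on the 6 wild-type arrays, as the labels have it. It was the one with the clearest gap among 4 Tlr4 probe sets, and whether each reads the deleted stretch of the gene is unknown here. A further probe set was also lower on every TLR4 null array, and the other 2 did not pass the filter.

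The most common change among the carriers was a lower level after ischemia, while 1 gene, Slc25a24, moved strongly the other way in both genotypes. Of the 91 probe sets, 79 passed the filter and stand for 40 genes. None of the 79 passed through a single group. The 12 others include all probe sets of Slc25a31, Slc25a41 and Slc25a54, whose signals stayed between 0.29 and 49.4. In TLR4 null kidneys 24 of the 79 were called (30.4%), 3 higher and 21 lower with ischemia, where 16.7% of all tested probe sets were called. Falls made up 26.6% of the members, against 8.23% of all probe sets, and rises 3.8%, against 8.49%. In wild-type kidneys 13 of the 79 were called (16.5%), close to the 15.6% of all probe sets. They were 3 higher, where 7.71% of all probe sets rose, and 10 lower, and falls made up 12.7% of the members, against 7.91% of all probe sets. With every array scaled to the same median signal, 12 were called in TLR4 null kidneys, 3 higher and 9 lower, and 8 in wild-type kidneys, 3 higher and 5 lower. Falls then made up 11.4% of the members in TLR4 null, against 4.37% of all probe sets, and 6.33% of the members in wild type, against 3.04% of all.

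The shift was also visible without a threshold. The median member differed by -0.20 log2 units with ischemia in TLR4 null kidneys, against -0.04 for all tested probe sets. In wild-type kidneys these medians were -0.14 for the members and -0.08 for all tested probe sets. Fitted differences were below 0 for 60 of the 79 members in TLR4 null kidneys (75.9%, against 54.8% of all probe sets) and for 56 in wild-type kidneys (70.9%, against 58.6%). All 3 ischemic arrays lay below all 3 sham arrays for 31 members in TLR4 null (39.2%, against 16.6% of all) and for 26 members in wild type (32.9%, against 20.9%). Probe sets of 1 gene share their transcript and are not independent. In whole kidneys, fewer cells of a type and less RNA per cell cannot be told apart.

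Each gene is described by its tested probe set with the highest mean. By that count 16 of 40 genes were called in TLR4 null kidneys, where 20.2% of 14322 named genes were. They were 1 higher (9.32% of all genes rose) and 15 lower (37.5%, against 10.9% of all genes). In wild-type kidneys 10 of 40 were called, where 18.5% of all genes were, 1 higher (8.72% of all genes rose) and 9 lower (22.5%, against 9.77%). Slc25a24 was higher in both genotypes. Slc25a11, Slc25a12, Slc25a13, Slc25a16, Slc25a17, Slc25a33, Slc25a35 and Slc25a42 were lower in both. Another 7 genes passed as lower in TLR4 null kidneys and missed the threshold in wild type, and Slc25a22 did the reverse. No difference between these responses passed its own test, as given further on. The remaining 23 genes were called in neither genotype. The counts by role that follow are of few genes each and stand against the same shares of all genes.

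**Figure D1:**
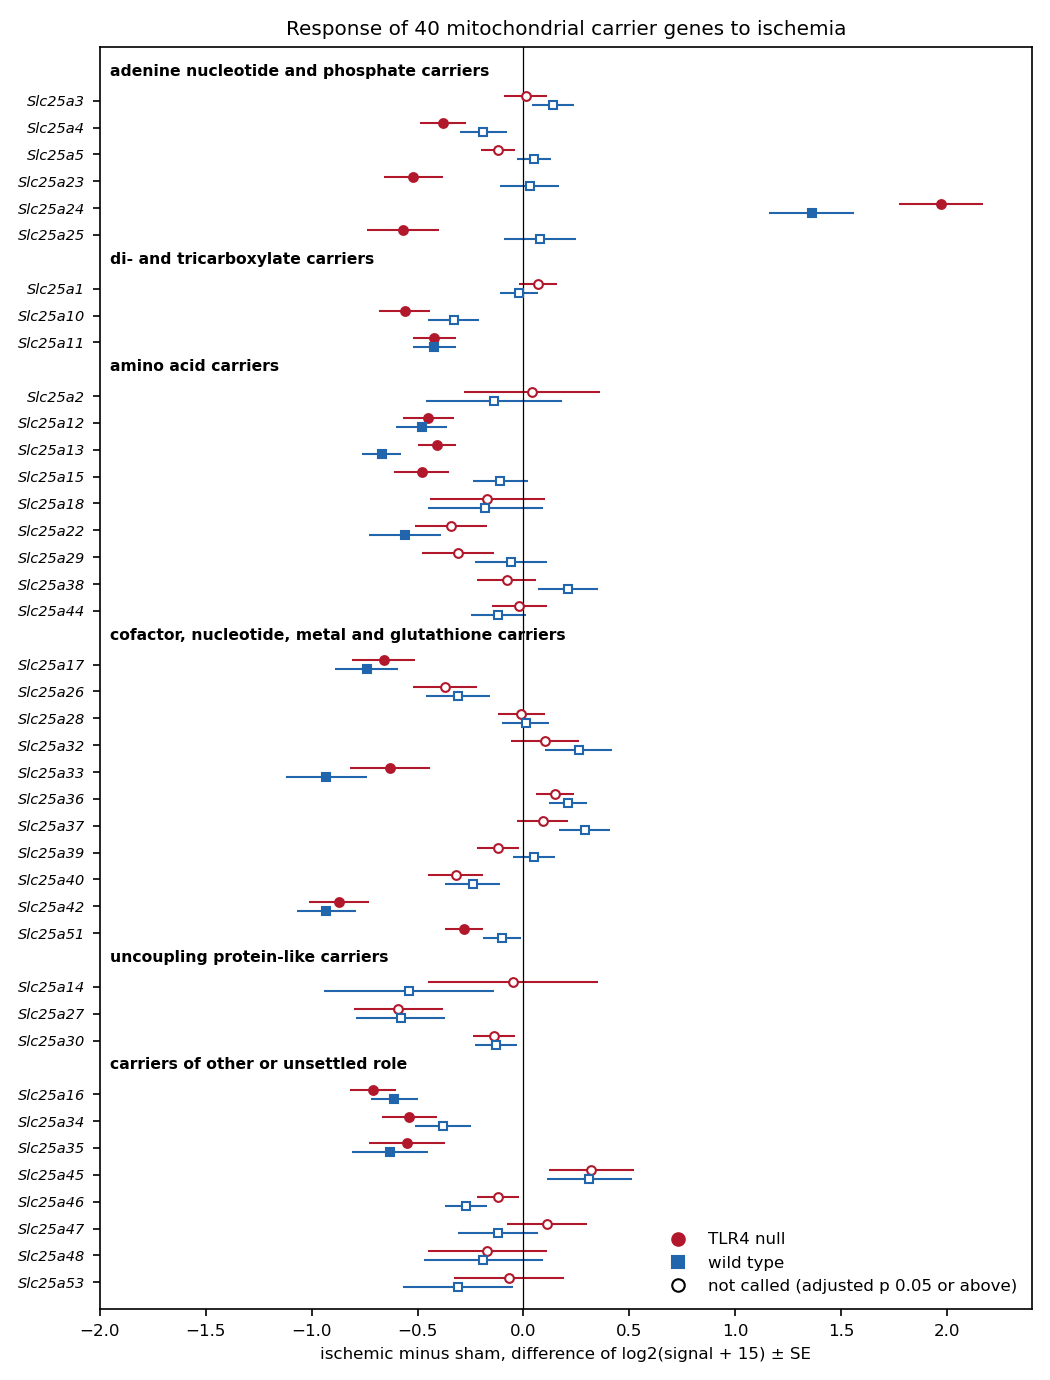
Differences between ischemic and sham kidneys for the 40 tested carrier genes, as log2(signal + 15) ± standard error on the x axis, grouped by role, for TLR4 null (red circles) and wild type (blue squares). Filled symbols are called at an adjusted p under 0.05; most filled symbols lie left of 0, and the pair far to the right is Slc25a24.

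Among the adenine nucleotide and phosphate carriers, 6 genes were tested. In TLR4 null kidneys 1 rose and 3 fell, and in wild-type kidneys 1 rose and none fell, with median differences of -0.25 in TLR4 null and 0.06 in wild type. Slc25a24 encodes a calcium-regulated carrier that exchanges ATP-Mg for phosphate and so sets the size of the adenine nucleotide pool in the matrix. Its signals were 949.8, 1359 and 747 in TLR4 null ischemic kidneys, against 278, 202 and 248 in TLR4 null sham kidneys. They were 986, 862 and 1150.2 in wild-type ischemic kidneys, against 369, 474 and 307 in wild-type sham kidneys. In both genotypes every ischemic kidney lay far above every sham kidney. The difference was 1.97 ± 0.20 (adjusted p = 6.99e-06) in TLR4 null, a 3.92-fold level, and 1.36 ± 0.20 (adjusted p = 0.000227) in wild type, a 2.57-fold level. A second probe set of the gene gave 214, 224 and 127 in TLR4 null ischemic kidneys, against 25.5, 42.6 and 61.8 in TLR4 null sham kidneys. In wild type it gave 224, 183 and 238 in wild-type ischemic kidneys, against 82.1, 81.8 and 53.4 in wild-type sham kidneys. It rose as well, by 1.81 ± 0.26 (adjusted p = 0.000166) in TLR4 null and 1.41 ± 0.26 (adjusted p = 0.00144) in wild type. Both calls of the first probe set held in each of the 12 fits that left out an array and in the 13 other alternatives, between 1.74 and 2.17 in TLR4 null and between 1.22 and 1.52 in wild type without an array.

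The closest relatives of Slc25a24, the ATP-Mg/phosphate carriers Slc25a23 and Slc25a25, did not rise. Slc25a23 gave 254, 319 and 376 in TLR4 null ischemic kidneys, against 499, 463 and 408 in TLR4 null sham kidneys. It gave 336, 413 and 401 in wild-type ischemic kidneys, against 369, 370.0 and 382 in wild-type sham kidneys. The TLR4 null groups did not overlap and the gene fell by 0.52 ± 0.14 (adjusted p = 0.0157) there, while the wild-type groups overlapped with a difference of 0.03 ± 0.14 (adjusted p = 0.919). The fall missed the threshold without TLR4 null ischemic replicate 1, at -0.38 (adjusted p = 0.0779), and without TLR4 null sham replicate 1, at -0.46 (adjusted p = 0.0631). Slc25a25 gave 674, 707 and 1089 in TLR4 null ischemic kidneys, against 1126, 1048 and 1459 in TLR4 null sham kidneys. It gave 894, 952 and 989.6 in wild-type ischemic kidneys, against 952, 719 and 1037 in wild-type sham kidneys. The TLR4 null groups overlapped, since the highest ischemic kidney exceeded the lowest sham kidney. The difference passed in TLR4 null at -0.57 ± 0.17 (adjusted p = 0.0368) and was 0.08 ± 0.17 (adjusted p = 0.82) in wild type. The call was lost without TLR4 null ischemic replicate 1 or 2, at -0.44 (adjusted p = 0.148) and -0.48 (adjusted p = 0.124), and without sham replicate 1 or 3, at -0.61 (adjusted p = 0.0602) and -0.43 (adjusted p = 0.163).

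Of the carriers that serve ATP synthesis directly, 1 of 3 was called, in TLR4 null kidneys alone. Slc25a3, which imports phosphate for ATP synthase, gave 12358, 12516 and 14821 in TLR4 null ischemic kidneys, against 13314, 13460.5 and 12472 in TLR4 null sham kidneys. It gave 14383, 14518 and 12099 in wild-type ischemic kidneys, against 11263, 12821 and 13042 in wild-type sham kidneys. The groups overlapped in both genotypes, with differences of 0.01 ± 0.10 (adjusted p = 0.955) in TLR4 null and 0.14 ± 0.10 (adjusted p = 0.371) in wild type. A second Slc25a3 probe set, with low signals, was not called either. In TLR4 null it differed by 0.56 ± 0.26 (adjusted p = 0.172), with all ischemic kidneys above all shams. In wild type it differed by -0.51 ± 0.26 (adjusted p = 0.23), with overlapping groups. Slc25a4 encodes the ADP/ATP translocase that predominates in heart and muscle. It gave 6751, 7955 and 8409 in TLR4 null ischemic kidneys, against 9806, 11155 and 9179 in TLR4 null sham kidneys. In wild type it gave 7551, 9603 and 8564 in wild-type ischemic kidneys, against 9433, 10909 and 8991 in wild-type sham kidneys. It fell in TLR4 null by 0.38 ± 0.11 (adjusted p = 0.028) with groups that did not overlap, and the wild-type difference was -0.19 ± 0.11 (adjusted p = 0.292) with groups that did. That fall missed the threshold without TLR4 null ischemic replicate 1 at -0.29 (adjusted p = 0.124), without TLR4 null sham replicate 1 at -0.40 (adjusted p = 0.0586) and without sham replicate 2 at -0.31 (adjusted p = 0.119). Slc25a5, the more widely expressed ADP/ATP translocase, gave 13379, 14390.0 and 14709 in TLR4 null ischemic kidneys, against 15170.0, 15889.6 and 14991 in TLR4 null sham kidneys. It gave 15240.1, 15559 and 13094 in wild-type ischemic kidneys, against 13003, 15139.9 and 14297 in wild-type sham kidneys. Neither difference passed, at -0.12 ± 0.08 (adjusted p = 0.406) in TLR4 null and 0.05 ± 0.08 (adjusted p = 0.774) in wild type.

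**Figure D2:**
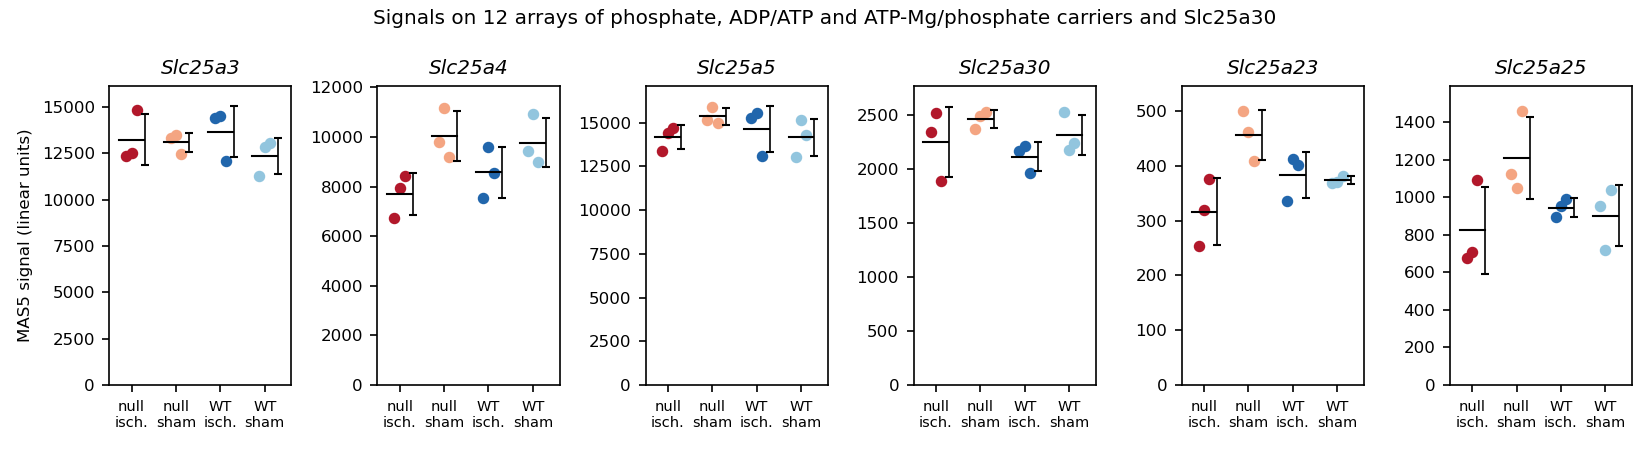
MAS5 signal on each of the 12 arrays for the phosphate carrier Slc25a3, the ADP/ATP translocases Slc25a4 and Slc25a5, Slc25a30, and the ATP-Mg/phosphate carriers Slc25a23 and Slc25a25. Points are kidneys, long bars are means and whiskers are SD (n = 3), for TLR4 null ischemic and sham, then wild-type (WT) ischemic and sham; the groups of Slc25a3 and Slc25a30 overlap in both genotypes.

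Of 3 di- and tricarboxylate carriers, 2 fell in TLR4 null kidneys and 1 in wild-type kidneys. Slc25a11 exchanges oxoglutarate for malate as the first arm of the malate-aspartate shuttle, which carries reducing equivalents into the matrix. Its signals were 1333, 1236 and 1203 in TLR4 null ischemic kidneys, against 1609, 1859 and 1591 in TLR4 null sham kidneys. They were 1200.2, 1261 and 979 in wild-type ischemic kidneys, against 1525, 1549.5 and 1529 in wild-type sham kidneys. The groups were apart in both genotypes, and the gene fell by 0.42 ± 0.10 (adjusted p = 0.00924) in TLR4 null and by 0.42 ± 0.10 (adjusted p = 0.00891) in wild type. Slc25a10 encodes the dicarboxylate carrier, which exchanges malate or succinate for phosphate. It gave 2243, 2268 and 2651 in TLR4 null ischemic kidneys, against 3091, 4096 and 3407 in TLR4 null sham kidneys. It gave 2677, 2980.2 and 2346 in wild-type ischemic kidneys, against 3502, 2993 and 3536 in wild-type sham kidneys. No ischemic kidney reached the sham range in either genotype. The fall was -0.56 ± 0.12 (adjusted p = 0.00403) in TLR4 null, and the wild-type difference of -0.33 ± 0.12 (adjusted p = 0.0747) missed the threshold. A second Slc25a10 probe set passed in both genotypes, at -0.50 ± 0.11 (adjusted p = 0.00624) in TLR4 null and -0.58 ± 0.11 (adjusted p = 0.00236) in wild type. The citrate carrier Slc25a1 differed by 0.07 in TLR4 null and -0.02 in wild type, with overlapping groups. Without TLR4 null sham replicate 2, Slc25a11 in TLR4 null was -0.35 (adjusted p = 0.0504). Median scaling ended both calls of the second Slc25a10 probe set, at -0.48 (adjusted p = 0.0757) in TLR4 null and -0.49 (adjusted p = 0.0739) in wild type. It also took Slc25a11 over the threshold in both genotypes, at -0.40 (adjusted p = 0.115) in TLR4 null and -0.34 (adjusted p = 0.206) in wild type.

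The aspartate/glutamate carriers, which form the other arm of that shuttle, fell with Slc25a11 in both genotypes. Slc25a13 (citrin) gave 901, 824 and 981 in TLR4 null ischemic kidneys, against 1218, 1238 and 1139 in TLR4 null sham kidneys. It gave 751, 752 and 669 in wild-type ischemic kidneys, against 1189, 1183 and 1109.7 in wild-type sham kidneys. The 3 kidneys of each group lay close together, with clear gaps between ischemic and sham. The gene fell by 0.41 ± 0.09 (adjusted p = 0.00581) in TLR4 null and by 0.67 ± 0.09 (adjusted p = 0.000114) in wild type, which leaves 0.754 of the sham level in TLR4 null and 0.628 in wild type. Slc25a12 (aralar) gave 861, 786 and 921 in TLR4 null ischemic kidneys, against 1085, 1362 and 1097 in TLR4 null sham kidneys. It gave 801, 985 and 750.2 in wild-type ischemic kidneys, against 1240.0, 1221 and 1086 in wild-type sham kidneys. Its groups did not overlap either, and it fell by 0.45 ± 0.12 (adjusted p = 0.0157) in TLR4 null and by 0.48 ± 0.12 (adjusted p = 0.0111) in wild type. The other tested probe sets of Slc25a12 were called in neither genotype. They differed by -0.34 ± 0.24 (adjusted p = 0.398) and -0.48 ± 0.21 (adjusted p = 0.137) in TLR4 null. In wild type they differed by -0.56 ± 0.24 (adjusted p = 0.14) and -0.40 ± 0.21 (adjusted p = 0.229). Their groups overlapped only for the first of them, in TLR4 null. The calls of Slc25a13 held without any 1 array. Those of Slc25a12 were lost without TLR4 null ischemic replicate 2, at -0.39 (adjusted p = 0.058), without TLR4 null sham replicate 2, at -0.35 (adjusted p = 0.0801), and without wild-type ischemic replicate 3, at -0.40 (adjusted p = 0.0564). With median scaling, Slc25a13 in TLR4 null was -0.39 (adjusted p = 0.0665), and Slc25a12 was -0.43 (adjusted p = 0.103) in TLR4 null and -0.40 (adjusted p = 0.151) in wild type.

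Other amino acid carriers divided between the genotypes in their calls. In all, 9 amino acid carriers were tested, and 3 fell in each genotype, with medians of -0.31 in TLR4 null and -0.14 in wild type. Slc25a15, which exchanges ornithine and citrulline for the urea cycle, gave 1332, 1670.2 and 2042 in TLR4 null ischemic kidneys, against 2293, 2337 and 2330.4 in TLR4 null sham kidneys. It gave 1654, 2059.6 and 1638 in wild-type ischemic kidneys, against 2002, 1904 and 1862 in wild-type sham kidneys. The TLR4 null sham kidneys stood above all other kidneys. The gene fell by 0.48 ± 0.13 (adjusted p = 0.0163) in TLR4 null, and the wild-type difference was -0.11 ± 0.13 (adjusted p = 0.619). A second probe set of Slc25a15 did not share this pattern and was called in neither genotype. That probe set differed by -0.04 ± 0.21 (adjusted p = 0.936) in TLR4 null. In wild type it differed by -0.51 ± 0.21 (adjusted p = 0.119), with every ischemic kidney below every sham kidney. Slc25a22, a glutamate carrier, gave 374, 266 and 296 in TLR4 null ischemic kidneys, against 414, 364 and 408 in TLR4 null sham kidneys. It gave 204, 246 and 236 in wild-type ischemic kidneys, against 369, 256 and 430.1 in wild-type sham kidneys. The wild-type groups were apart by a small gap and the TLR4 null groups overlapped. It fell by 0.56 ± 0.17 (adjusted p = 0.034) in wild type, with -0.34 ± 0.17 (adjusted p = 0.206) in TLR4 null. Without TLR4 null ischemic replicate 1 Slc25a15 was -0.33 (adjusted p = 0.0763). The Slc25a22 call was lost without any of 5 wild-type arrays, which were all but sham replicate 2, and its values there were between -0.41 and -0.62. Median scaling ended both, at -0.46 (adjusted p = 0.0592) for Slc25a15 and -0.48 (adjusted p = 0.0941) for Slc25a22. The ornithine carrier Slc25a2, the glutamate carrier Slc25a18, the basic amino acid carrier Slc25a29, the glycine carrier Slc25a38 and the branched-chain amino acid carrier Slc25a44 were not called, with differences of -0.31 to 0.04 in TLR4 null and -0.18 to 0.21 in wild type.

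Of the 40 genes, the cofactor carrier Slc25a42 had the largest fitted fall in TLR4 null, and in wild type it and the nucleotide carrier Slc25a33 fell by the same amount to 2 decimals, more than any other. Of 11 cofactor, nucleotide, metal and glutathione carriers tested, 4 fell in TLR4 null and 3 in wild type, with median differences of -0.28 in TLR4 null and -0.10 in wild type. Slc25a42, which brings coenzyme A into the matrix, gave 349, 279.9 and 291 in TLR4 null ischemic kidneys, against 551, 653 and 518 in TLR4 null sham kidneys. It gave 264, 229.6 and 179 in wild-type ischemic kidneys, against 417, 423 and 470.1 in wild-type sham kidneys. The gene fell by 0.87 ± 0.14 (adjusted p = 0.00056) in TLR4 null and by 0.93 ± 0.14 (adjusted p = 0.000337) in wild type. This left 0.546 of the sham level in TLR4 null and 0.524 in wild type. By this probe set each TLR4 null group lay above the wild-type group of the same surgery. A second tested Slc25a42 probe set, with low signals, did not share this pattern and was called in neither genotype. With ischemia it differed by 0.45 ± 0.47 (adjusted p = 0.593) in TLR4 null and by -0.98 ± 0.47 (adjusted p = 0.193) in wild type, with overlapping groups. Slc25a17 is a carrier of the peroxisomal membrane for coenzyme A, FAD and NAD+. It gave 602, 781 and 557 in TLR4 null ischemic kidneys, against 1029, 1012 and 1013 in TLR4 null sham kidneys. It gave 669, 699 and 448 in wild-type ischemic kidneys, against 1035, 1005 and 973 in wild-type sham kidneys. All 6 sham kidneys lay close together, well above the ischemic kidneys. The falls were -0.66 ± 0.15 (adjusted p = 0.00648) in TLR4 null and -0.74 ± 0.15 (adjusted p = 0.00299) in wild type. A second Slc25a17 probe set, with low signals, was called in neither genotype. It differed by -0.37 ± 0.30 (adjusted p = 0.465) in TLR4 null and -0.17 ± 0.30 (adjusted p = 0.772) in wild type.

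Slc25a33, an importer of pyrimidine nucleotides, gave 583, 1097 and 1166 in TLR4 null ischemic kidneys, against 1339, 1410.5 and 1508 in TLR4 null sham kidneys. It gave 1008, 1132 and 978 in wild-type ischemic kidneys, against 1901, 2234 and 1871 in wild-type sham kidneys. The TLR4 null ischemic kidneys spread widely, with 1 low kidney, yet all lay under the shams. It fell by 0.63 ± 0.19 (adjusted p = 0.0292) in TLR4 null and by 0.93 ± 0.19 (adjusted p = 0.00287) in wild type. The wild-type fall held without any 1 array. The TLR4 null fall depended on the arrays, and was -0.32 (adjusted p = 0.0639) without ischemic replicate 1, and -0.68 (adjusted p = 0.0531), -0.64 (adjusted p = 0.0712) and -0.59 (adjusted p = 0.0932) without sham replicates 1, 2 and 3. Its other pyrimidine nucleotide relative, Slc25a36, differed by 0.15 ± 0.09 (adjusted p = 0.29) in TLR4 null and 0.21 ± 0.09 (adjusted p = 0.148) in wild type. Slc25a51, which imports NAD+, gave 2940.4, 2299 and 2722 in TLR4 null ischemic kidneys, against 3014, 3311 and 3328 in TLR4 null sham kidneys. It gave 2850.1, 2808 and 2845 in wild-type ischemic kidneys, against 3168, 2864 and 3101 in wild-type sham kidneys. The difference passed narrowly in TLR4 null, at -0.28 ± 0.09 (adjusted p = 0.0437), and was -0.10 ± 0.09 (adjusted p = 0.52) in wild type. The TLR4 null call held in only 2 of the 12 fits that left out an array, with values between -0.36 and -0.18. It held in 7 of the 13 other alternatives. Quantile or median scaling, no filter, no eBayes trend, only the compared groups and the replicate block each ended it. The other tested probe sets of Slc25a51 were not called. They differed by 0.19 ± 0.21 and 0.14 ± 0.16 in TLR4 null, and by -0.03 ± 0.21 and 0.25 ± 0.16 in wild type.

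The other 7 carriers of this group were not called by the probe set that speaks for them. They are the S-adenosylmethionine carrier Slc25a26, the mitoferrins Slc25a28 and Slc25a37, which import iron, Slc25a32, a carrier of folate and FAD, Slc25a36, and the glutathione carriers Slc25a39 and Slc25a40. Their differences lay between -0.37 and 0.15 in TLR4 null and between -0.31 and 0.29 in wild type. For Slc25a26 and Slc25a40 all ischemic kidneys were below all sham kidneys in both genotypes, although Slc25a26 reached only adjusted p = 0.114 in TLR4 null and adjusted p = 0.186 in wild type, and Slc25a40 adjusted p = 0.113 in TLR4 null and adjusted p = 0.258 in wild type.

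Among 8 carriers of other or unsettled role, 3 fell in TLR4 null and 2 in wild type. Slc25a16, linked to coenzyme A in the matrix, gave 1095, 1398 and 1143 in TLR4 null ischemic kidneys, against 1924, 1953 and 2052 in TLR4 null sham kidneys. It gave 1056, 1435 and 1295 in wild-type ischemic kidneys, against 2052, 1911 and 1814 in wild-type sham kidneys. Ischemic and sham kidneys were far apart in both genotypes, and it fell by 0.71 ± 0.11 (adjusted p = 0.000535) in TLR4 null and by 0.61 ± 0.11 (adjusted p = 0.00174) in wild type. Slc25a34, whose substrate is not settled, gave 385, 521 and 418 in TLR4 null ischemic kidneys, against 613, 661 and 660.4 in TLR4 null sham kidneys. It gave 467, 421 and 423 in wild-type ischemic kidneys, against 492, 669 and 569.7 in wild-type sham kidneys. The groups did not overlap in either genotype, and the gene passed in TLR4 null at -0.54 ± 0.13 (adjusted p = 0.00835) and narrowly missed in wild type at -0.38 ± 0.13 (adjusted p = 0.0586). Slc25a35, also of unsettled substrate, gave 164, 95.4 and 136 in TLR4 null ischemic kidneys, against 174, 230.1 and 186 in TLR4 null sham kidneys. It gave 117, 126 and 116 in wild-type ischemic kidneys, against 180.2, 218 and 183 in wild-type sham kidneys. Here too the groups were apart, with -0.55 ± 0.18 (adjusted p = 0.047) in TLR4 null and -0.63 ± 0.18 (adjusted p = 0.0239) in wild type. The Slc25a35 call in TLR4 null held in 1 of 12 fits that left out an array, with values of -0.70 to -0.35, and the wild-type call in 8 of 12. That one was lost without wild-type ischemic replicates 1 and 3 and wild-type sham replicates 2 and 3, with values of -0.62 (adjusted p = 0.0679), -0.61 (adjusted p = 0.0696), -0.55 (adjusted p = 0.0975) and -0.67 (adjusted p = 0.0525). Median scaling moved Slc25a34 to -0.53 (adjusted p = 0.0565) and ended both calls of Slc25a35. The TLR4 null call of Slc25a35 was kept in 5 of the 13 alternatives that left out no array, and was lost with quantile and median scaling, no filter, no eBayes trend, array weights, only the compared groups, the replicate block and the adipocyte covariate (adjusted p = 0.0548 to 0.122). Slc25a45, Slc25a46, Slc25a47, Slc25a48 and Slc25a53 were not called, between -0.17 and 0.32 in TLR4 null and between -0.31 and 0.31 in wild type.

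None of the 3 carriers that resemble uncoupling proteins was called. Slc25a30, known as kidney mitochondrial carrier protein 1, gave 2346, 2522 and 1892 in TLR4 null ischemic kidneys, against 2375, 2492 and 2529 in TLR4 null sham kidneys. It gave 2167, 2215 and 1962 in wild-type ischemic kidneys, against 2525, 2178 and 2244 in wild-type sham kidneys. The groups overlapped, with differences of -0.14 ± 0.10 (adjusted p = 0.422) in TLR4 null and -0.13 ± 0.10 (adjusted p = 0.459) in wild type, and its 3 other tested probe sets were not called either. Slc25a27 had all ischemic kidneys below all shams in both genotypes, at -0.59 ± 0.21 (adjusted p = 0.0683) in TLR4 null and -0.58 ± 0.21 (adjusted p = 0.0742) in wild type. A second tested Slc25a27 probe set had overlapping groups in both genotypes. It differed by -0.29 ± 0.26 (adjusted p = 0.517) in TLR4 null and 0.04 ± 0.26 (adjusted p = 0.941) in wild type. Slc25a14 had low and scattered signals and differed by -0.05 ± 0.40 in TLR4 null and -0.54 ± 0.40 in wild type.

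**Figure D3:**
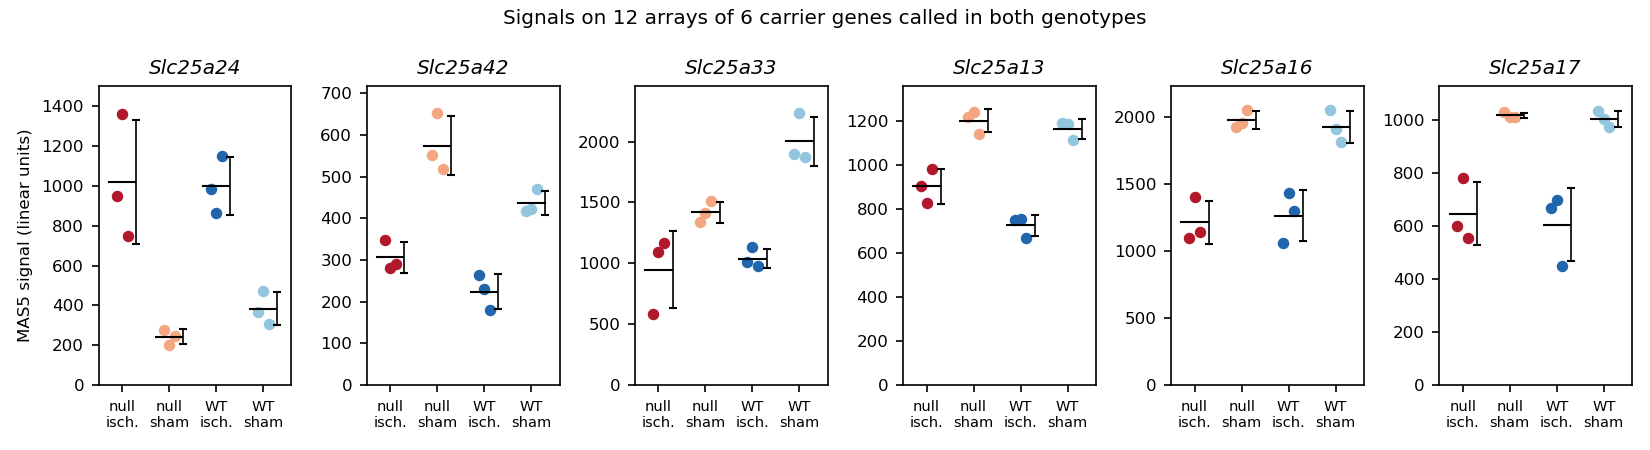
MAS5 signal on each of the 12 arrays for Slc25a24, Slc25a42, Slc25a33, Slc25a13, Slc25a16 and Slc25a17, each called in both genotypes. Points are kidneys, long bars are means and whiskers are SD (n = 3), for TLR4 null ischemic and sham, then wild-type (WT) ischemic and sham; Slc25a24 is higher and the other 5 are lower in ischemic kidneys, with no overlap.

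Promoters of the gene that rose and of 3 that fell in both genotypes are shown, so that the sequences in front of genes that moved in opposite directions can be set side by side. They are RefSeq windows of 250 bases before the annotated start (GRCm38.p6), printed 5′ to 3′ on the strand of the gene. Capitals mark the GC box (GGGCGG) and the CCAAT box (CCAAT) on either strand. Slc25a24 lies at chr3:109122899-109123148 on the plus strand, Slc25a42 at chr8:70212282-70212531, Slc25a33 at chr4:149774268-149774517 and Slc25a13 at chr6:6217174-6217423, all 3 on the minus strand.
Slc25a24: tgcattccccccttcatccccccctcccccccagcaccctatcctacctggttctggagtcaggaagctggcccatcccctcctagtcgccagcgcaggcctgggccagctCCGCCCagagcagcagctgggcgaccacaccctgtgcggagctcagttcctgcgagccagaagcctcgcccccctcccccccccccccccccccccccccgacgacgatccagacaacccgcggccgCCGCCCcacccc
Slc25a42: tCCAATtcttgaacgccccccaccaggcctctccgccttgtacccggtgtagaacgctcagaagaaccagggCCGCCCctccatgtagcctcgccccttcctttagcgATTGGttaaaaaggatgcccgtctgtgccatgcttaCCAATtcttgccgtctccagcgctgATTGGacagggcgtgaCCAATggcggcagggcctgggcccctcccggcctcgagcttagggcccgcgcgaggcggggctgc
Slc25a33: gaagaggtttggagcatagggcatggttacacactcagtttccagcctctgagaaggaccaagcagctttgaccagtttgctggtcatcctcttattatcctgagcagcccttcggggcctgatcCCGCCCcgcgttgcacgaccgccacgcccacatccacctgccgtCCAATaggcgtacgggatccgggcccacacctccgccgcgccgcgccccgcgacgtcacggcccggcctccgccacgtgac
Slc25a13: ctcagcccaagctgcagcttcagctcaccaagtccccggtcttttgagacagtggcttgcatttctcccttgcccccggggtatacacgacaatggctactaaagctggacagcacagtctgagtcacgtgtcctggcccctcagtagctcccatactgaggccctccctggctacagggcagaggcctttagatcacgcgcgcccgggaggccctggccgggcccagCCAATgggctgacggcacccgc
The Slc25a24 window holds 2 GC boxes and no CCAAT box and has 72.8% G and C. The Slc25a42 window holds 1 GC box and 5 CCAAT boxes, the Slc25a33 window 1 of each, and the Slc25a13 window 1 CCAAT box and no GC box.

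Over the family, 33 of the 43 genes had a window in the table, and a gene with several starts was counted once if any window matched. A GC box was present in 24 of the 33 (72.7%), against 35.4% of all 27025 genes with a window, coding or not. A CCAAT box was present in 17 (51.5%, against 37.5% of all genes). The E-box CACGTG was in 7 (21.2%, against 6.86%). The AP-1 site TGANTCA was in 2 (6.06%, against 7.82%), and the NRF1 site in 2 (6.06%, against 4.23%). The cyclic AMP response element, TGACGTCA, was in 2 (6.06%, against 1.77%). The core ATF4 motif TGATGNAA (3.91% of all genes) and the ERR motif TNAAGGTCA (1.3% of all genes) matched in none of the 33. Both strands were searched. An AP-1 site and an E-box in the Slc25a13 window share 2 bases, the only overlap of 2 motifs in the family. Median G and C content was 58.2% in the family's windows and 52.4% in all windows. Of the 8 genes that were lower in both genotypes, 7 had a window, with a GC box in 4 and a CCAAT box in 5. A match is a run of letters and not a bound site.

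Whether the response to ischemia differed between the genotypes was tested as an interaction, the TLR4 null response minus the wild-type response. None of the 79 members passed in limma, and 0.0% of all probe sets did. At an unadjusted p under 0.05 there were 9 members (11.4%, against 6.24% of all probe sets), and the count of calls stayed 0 in all 25 alternative fits. By the probe set that speaks for each gene, the 3 genes with the smallest p were Slc25a23, at -0.55 ± 0.19 (adjusted p = 0.677), Slc25a25, at -0.65 ± 0.25 (adjusted p = 0.713), and Slc25a24, at 0.61 ± 0.28 (adjusted p = 0.792). All 3 are ATP-Mg/phosphate carriers. Other probe sets gave a p smaller than all 3 of these. They were of Slc25a39, at -0.54 ± 0.16 (adjusted p = 0.602), and of the phosphate carrier Slc25a3, at 1.07 ± 0.37 (adjusted p = 0.677). The median interaction was -0.02 for the members and 0.03 for all probe sets.

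The genotypes were also compared within each surgery. Among ischemic kidneys no member was called in limma, where 0.406% of all probe sets were, and 5 had an unadjusted p under 0.05 (6.33%, against 10.1% of all). Among sham kidneys none was called either, where 0.178% of all probe sets were, and 9 had an unadjusted p under 0.05 (11.4%, against 8.27% of all). Both counts of 0 held in the 25 alternative fits. The ischemic groups were apart for 4 members, all higher in TLR4 null (7.04% of all probe sets were higher in this way and 6.78% lower). The smallest p among genes there were of Slc25a13, at 0.31 ± 0.09 (adjusted p = 0.196), Slc25a42, at 0.44 ± 0.14 (adjusted p = 0.262), and Slc25a22, at 0.42 ± 0.17 (adjusted p = 0.4), each with groups that did not overlap. The sham groups were apart for 16 members, 13 higher in TLR4 null (16.5%, against 6.88% of all probe sets) and 3 lower (8.2% of all). By the probe set that speaks for each gene, the smallest p were of Slc25a24, at -0.62 ± 0.20 (adjusted p = 0.329), Slc25a42, at 0.38 ± 0.14 (adjusted p = 0.445), and Slc25a33, at -0.49 ± 0.19 (adjusted p = 0.457). By these probe sets Slc25a24 and Slc25a33 had lower signals in TLR4 null than in wild-type shams on every array, without passing the test. The sham groups of the second Slc25a24 probe set overlapped. The second Slc25a42 probe set, with low signals, went the other way in shams. It differed by -1.04 ± 0.47 (adjusted p = 0.585), with all TLR4 null shams below all wild-type shams. Among all members a probe set of Slc25a39 had the smallest p, at 0.43 ± 0.12 (adjusted p = 0.21). Another of that gene had 0.31 ± 0.10 (adjusted p = 0.36), and both had groups apart.

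Probe sets of 1 gene did not always give the same call. Of 8 tested probe sets of Slc25a5, 2 fell in TLR4 null, at -0.61 ± 0.13 (adjusted p = 0.00347) and -0.66 ± 0.19 (adjusted p = 0.0262), and the other 6, with the one that speaks for the gene, were not called. The first of these gave 1901, 2393 and 1878 in TLR4 null ischemic kidneys, against 3526, 3159 and 2757 in TLR4 null sham kidneys. Of 5 tested probe sets of Slc25a39, 2 fell in TLR4 null, at -0.69 ± 0.12 (adjusted p = 0.000682) and -0.31 ± 0.09 (adjusted p = 0.0302). The first of these gave 1815, 2144 and 1777 in TLR4 null ischemic kidneys, against 3354, 2973 and 2944 in TLR4 null sham kidneys. It gave 1705, 2225 and 2274 in wild-type ischemic kidneys, against 2428, 2377 and 2065 in wild-type sham kidneys. Its TLR4 null sham kidneys stood above all others, and its wild-type difference was -0.15 ± 0.12 (adjusted p = 0.429). All 4 of these probe sets have the suffix _x_at, which marks probes that can match more than 1 sequence. The second call of Slc25a5 and the second of Slc25a39 were each lost in 4 of the 12 fits that left out an array, with values of -0.87 to -0.45 and of -0.41 to -0.24. For Slc25a4, 1 of 3 tested probe sets was called in TLR4 null, and for Slc25a25 a second probe set passed there too, at -0.68 ± 0.22 (adjusted p = 0.0465), in 3 of the 12 fits without an array.

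In 2 genes a probe set rose although the one that speaks for the gene was not called. For Slc25a32 that probe set gave 163, 152 and 146 in TLR4 null ischemic kidneys, against 107, 86.4 and 81.7 in TLR4 null sham kidneys. These groups were apart, with 0.67 ± 0.16 (adjusted p = 0.00911) in TLR4 null and 0.26 ± 0.16 (adjusted p = 0.324) in wild type, where the probe set that speaks for Slc25a32 had 0.10 in TLR4 null and 0.26 in wild type. For Slc25a36 it gave 642, 618 and 555 in wild-type ischemic kidneys, against 442, 503 and 369.8 in wild-type sham kidneys. It rose by 0.46 ± 0.12 (adjusted p = 0.0145) in wild type and differed by 0.29 ± 0.12 (adjusted p = 0.107) in TLR4 null. That call was lost without wild-type ischemic replicate 1 or wild-type sham replicate 3, with values as low as 0.35.

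**Figure D4:**
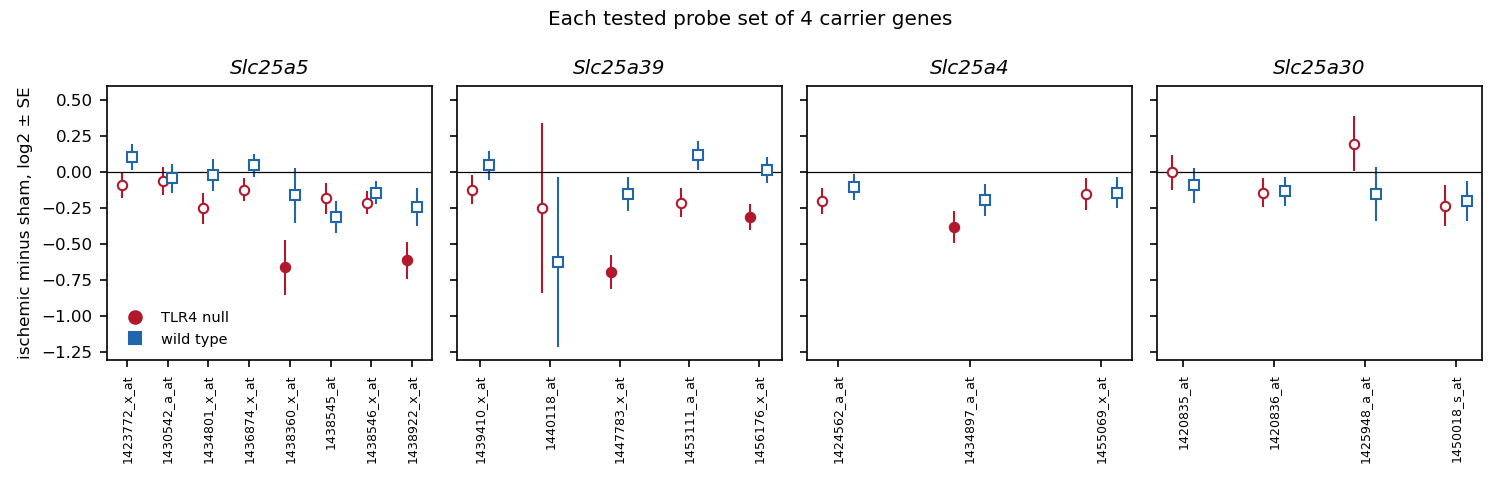
Differences between ischemic and sham kidneys (log2(signal + 15) ± standard error, y axis) for every tested probe set of Slc25a5, Slc25a39, Slc25a4 and Slc25a30, for TLR4 null (red circles) and wild type (blue squares). Filled symbols are called at an adjusted p under 0.05; the filled ones are a minority within Slc25a5, Slc25a39 and Slc25a4, all in TLR4 null, and Slc25a30 has none.

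Enzymes that use the same metabolites changed in part. Of 15 listed, 14 were tested, with 1 rise and 4 falls in TLR4 null and 3 falls in wild type. Of all genes, 9.32% rose and 10.9% fell in TLR4 null, and 8.72% rose and 9.77% fell in wild type. Fech, which inserts iron into protoporphyrin to make heme, fell by 0.41 ± 0.11 (adjusted p = 0.0155) in TLR4 null and by 0.54 ± 0.11 (adjusted p = 0.00269) in wild type. Oat, which degrades ornithine, fell by 0.38 ± 0.09 (adjusted p = 0.00778) in TLR4 null and by 0.34 ± 0.09 (adjusted p = 0.0178) in wild type. Alas1, the first enzyme of heme synthesis, fell in TLR4 null at -1.13 ± 0.24 (adjusted p = 0.00442), with -0.24 ± 0.24 (adjusted p = 0.569) in wild type. Got1, the cytosolic aspartate aminotransferase of the malate-aspartate shuttle, rose in TLR4 null by 0.39 ± 0.11 (adjusted p = 0.0205), while both aspartate/glutamate carriers fell, and it differed by -0.00 ± 0.11 (adjusted p = 0.987) in wild type. Got2, Mdh1 and Mdh2, the other enzymes of that shuttle, were not called in either genotype.

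Regulators of mitochondrial gene expression changed in both directions. Of 8 tested, 1 rose and 3 fell in TLR4 null, and 2 rose and 2 fell in wild type. Over all genes the shares were 9.32% higher and 10.9% lower in TLR4 null, and 8.72% higher and 9.77% lower in wild type. Atf4, a transcription factor of the integrated stress response, rose by 1.70 ± 0.11 (adjusted p = 9.01e-08) in TLR4 null and by 1.50 ± 0.11 (adjusted p = 3.44e-07) in wild type. Ppara, a nuclear receptor that drives genes of fatty acid oxidation, fell by 0.79 ± 0.17 (adjusted p = 0.00387) in TLR4 null and by 0.89 ± 0.17 (adjusted p = 0.00171) in wild type. Tfam, which maintains and transcribes mitochondrial DNA, fell by 0.51 ± 0.09 (adjusted p = 0.00148) in TLR4 null and by 0.53 ± 0.09 (adjusted p = 0.00126) in wild type. Ppargc1a, a coactivator of mitochondrial biogenesis, fell by 0.49 ± 0.11 (adjusted p = 0.00749) in TLR4 null and differed by -0.24 ± 0.11 (adjusted p = 0.187) in wild type.

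All 7 kidney markers, of the proximal tubule to the podocyte, passed the filter. The only one called was the proximal tubule receptor Lrp2, which fell by 0.52 ± 0.10 (adjusted p = 0.00182) in TLR4 null and by 0.33 ± 0.10 (adjusted p = 0.0309) in wild type, while the proximal phosphate transporter Slc34a1 differed by -0.06 ± 0.11 (adjusted p = 0.764) in TLR4 null and 0.13 ± 0.11 (adjusted p = 0.487) in wild type. Over all genes the shares of falls were 10.9% in TLR4 null and 9.77% in wild type. Summed signals of the 7 markers were 45274 to 51514 in TLR4 null ischemic kidneys and 50844 to 56203 in TLR4 null shams, and 46267 to 53899 in wild-type ischemic kidneys and 44612 to 54607 in wild-type shams. Umod, which was not called, had the highest signals of the 7 and weighs most in this sum. Of 6 neutrophil and macrophage markers, 3 rose in each genotype and 1 fell in wild type. S100a8, S100a9 and Cd68 rose by 1.07 ± 0.21, 1.09 ± 0.21 and 1.02 ± 0.19 in TLR4 null. In wild type they rose by 1.34 ± 0.21, 1.52 ± 0.21 and 0.94 ± 0.19. Csf1r fell by 0.35 ± 0.09 (adjusted p = 0.0121) in wild type. Of all genes, 9.32% rose in TLR4 null, and 8.72% rose and 9.77% fell in wild type. Summed signals of the 6 markers were 1783 to 2029 in TLR4 null ischemic kidneys and 1623 to 1715 in TLR4 null shams, and 2137 to 2655 in wild-type ischemic kidneys and 1956 to 2010.4 in wild-type shams. Csf1r had the highest signals of the 6 markers and weighs most in these sums. The part of these markers in the carriers' changes was not tested. Adipocyte markers varied within every group, with summed signals of 2377 to 9023 in TLR4 null ischemic kidneys, 2898 to 5537 in TLR4 null shams, 4351 to 12754 in wild-type ischemic kidneys and 5276 to 8989 in wild-type shams, and none of 4 tested was called. With their mean as a covariate, 23 carrier probe sets were called in TLR4 null (29.1%, against 16.6% of all probe sets) and 13 in wild type (16.5%, against 15.1%). Of 6 muscle markers 2 were tested, and neither was called.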

How the data were processed

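The authors deposited microarray signal intensity on a linear scale. Per the submitters' processing notes it was computed with MAS5, and the sources used here do not give its version or scaling target. The values were kept as deposited, on 45037 probe sets after 64 control probe sets were left out. Genes came from the platform annotation, and all 91 members' Entrez identifiers matched the RefSeq gene table with unchanged symbols. Signals were taken as log2(signal + 15). A probe set was tested if it exceeded its array's 40th percentile on at least 3 of 12 arrays. limma 3.58.1 in R 4.3.3 (lmFit, eBayes with a trend) fitted 1 mean per group over all 12 arrays, with 8 residual degrees of freedom. Tests were two-sided and adjusted by Benjamini and Hochberg over all tested probe sets. They measure the spread between 3 kidneys per group, a number that limits precision. The fit was tested on simulated data with known changes. Values on every array were given for up to 8 rises and 8 falls with the smallest p per ischemia comparison, the 3 genes with the smallest p where a comparison had no call, and Slc25a3, Slc25a4, Slc25a5 and Slc25a30; Slc25a15, Slc25a51, Got1, Ppargc1a, Slc34a1, the second probe sets and the promoters shown were added after their values were seen. The members and gene lists were chosen with earlier results of these data known. The 2 probe sets of Slc25a20, 1 probe set that names several genes and some genes of the family and the lists are not analysed here. Alternatives were quantile and median scaling, pseudocounts of 1 and 60, no filter and one at the 60th percentile, 1 probe set per gene, no _x_at or _s_at probe sets, array weights, eBayes with no trend, the compared groups alone, a replicate block, an adipocyte covariate, and leaving out each array. Tables and figures used Python 3.11.15 with pandas 2.3.3 and matplotlib 3.10.9.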

Additional observations from a re-analysis of the deposited data

How the results depend on the processing

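The count of carrier probe sets called in TLR4 null, 24, was 12 with median scaling (15.2% of members, against 11.1% of all probe sets), and 14 without the eBayes trend, 3 higher and 11 lower (17.7%, against 13.3%). It was 17 without a filter (18.7%, against 10.0%), 17 with only the compared groups (21.5%, against 12.2%), and 16 of 40 with 1 probe set per gene, where 21.6% of all were called. It was 16 to 23 when an array was left out (20.5% to 29.5% of members, against 12.7% to 16.7% of all). The lowest of these were without TLR4 null ischemic replicate 1 (16, 20.5% of members against 13.1% of all) and without TLR4 null sham replicate 2 (16, 20.8% against 13.0%). The count in wild type, 13, was 8 with median scaling (10.1%, against 10.4% of all), 19 with quantile scaling, 3 of them higher (24.1%, against 16.7%), and 18 with array weights (22.8%, against 19.6%). It was 10 to 14 when an array was left out (12.7% to 17.9% of members, against up to 17.4% of all). The interaction and both genotype comparisons gave 0 calls in every alternative, and 0 when any array was left out. Median scaling also took Slc25a4 to -0.37 (adjusted p = 0.151) and Slc25a33 to -0.62 (adjusted p = 0.061) in TLR4 null. Besides Slc25a35 and Slc25a51, dropping the eBayes trend ended the TLR4 null calls of Slc25a4, Slc25a12, Slc25a15, Slc25a25 and Slc25a33. No filter ended those of Slc25a4, Slc25a25 and Slc25a33. Either change ended the wild-type call of Slc25a22. Only the compared groups ended the TLR4 null calls of Slc25a23, Slc25a25 and Slc25a33. No named difference changed its sign among those called. The median of all probe sets moved by less than 0.1 log2 units with either scaling. The largest move was in the wild-type response to ischemia, from -0.0755 to 0.0037 with median scaling. That is not small beside the wild-type medians of -0.14 for the members and -0.08 for all probe sets. In TLR4 null it went from -0.0425 to -0.0259. The cause of the lower counts was not tested.

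The labels number the replicates and do not say whether the numbers pair the kidneys. Deviations from the group means correlated across probe sets between arrays of the same number at r = -0.06 to 0.11 over 18 pairs, and only 1 pair was over 0.1. Between arrays of different numbers r was -0.13 to 0.14 over 36 pairs, also with 1 pair over 0.1. With 3 kidneys per group these values do not settle whether kidneys were paired. With the replicate number as a block, 22 probe sets were called in TLR4 null (27.8%, against 15.7% of all) and 14 in wild type (17.7%, against 14.9%), and 0 in the interaction and the genotype comparisons. With 3 arrays per group, single arrays decide several of the calls near the threshold.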

Other observations

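Relatives of the family that carry other symbols were also measured. Of 5 listed, 4 were tested and none was called in limma. Ucp1, the uncoupling protein of brown fat, spread from 2.91 to 714 in TLR4 null ischemic kidneys and from 17.0 to 258 in TLR4 null shams. It spread from 4.67 to 184 in wild-type ischemic kidneys, against 137 to 203 in wild-type shams. Ucp3, the uncoupling protein of skeletal muscle, differed by 0.07 ± 0.19 (adjusted p = 0.852) in TLR4 null and -0.19 ± 0.19 (adjusted p = 0.58) in wild type. Mtch2, a relative in the outer mitochondrial membrane, differed by -0.23 ± 0.11 (adjusted p = 0.176) in TLR4 null and -0.16 ± 0.11 (adjusted p = 0.375) in wild type.

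The outer membrane channels Vdac1, Vdac2 and Vdac3, through which the carriers' substrates reach the inner membrane, and the pyruvate carrier subunit Mpc1 were not called in either genotype. Mpc1 differed by -0.21 ± 0.09 (adjusted p = 0.137) in TLR4 null and -0.04 ± 0.09 (adjusted p = 0.822) in wild type. Vdac1 differed by -0.14 ± 0.09 (adjusted p = 0.336) in TLR4 null and 0.01 ± 0.09 (adjusted p = 0.96) in wild type.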
